A study of Mus musculus with 6 samples.

Results

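Ccl5, Ccl4, Ccl3 and Xcl1 are 4 chemokine genes of effector lymphocytes, taken by name, and all 4 are among the 14125 genes of a droplet-based single-cell RNA data set from the lymph nodes of pregnant mice. They were followed across the 9 cell types and the 5 CD4 subsets that the authors assigned, by node and by genotype. The dams were 4 Aire-DTR mice (numbers 8, 36, 4 and 7) and 3 WT mice (numbers 6, 97 and 1). Every dam, WT included, carried a litter sired by a BALB/c male, received diphtheria toxin (DT) over the first 9 days of gestation and was killed at E9.5. Aire-DTR denotes a transgene that puts the diphtheria toxin receptor under the control of Aire, so that toxin removes Aire-expressing cells of the thymic medulla and of peripheral lymphoid tissue. By the deposited cell table the pregnancy phenotype was "resorbed" in mouse 4 and "IUGR" in mice 8, 36 and 7. The nodes were the uterine-draining (udLN) and the brachial (brLN) lymph nodes of each mouse. The sources used here do not state the age of the mice. No group without toxin was analysed here, so that the transgene and the loss of cells cannot be told apart.

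Chemokines are small secreted proteins that guide leukocytes through G protein-coupled receptors. Ccl3, Ccl4 and Ccl5 are CC chemokines that attract T cells and monocytes, and Ccl3 and Ccl5 bind the receptor Ccr1. Xcl1 is the C chemokine that attracts Xcr1-bearing dendritic cells, the specialists of cross-presentation to CD8 T cells. Memory CD8 T cells and natural killer (NK) cells are known to hold Ccl5 message at rest, whereas Ccl3, Ccl4 and Xcl1 message accumulates rapidly when such cells are activated.

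In GENCODE release M21 on GRCm38, 3 of the 4 genes lie on chromosome 11: Ccl5 at 83525778 to 83530518 on the minus strand, Ccl3 at 83647844 to 83649355 on the minus strand and Ccl4 at 83662584 to 83664683 on the plus strand. Ccl3 and Ccl4 are 13.2 kb apart and point away from each other, and Ccl5 ends 117 kb before Ccl3. Xcl1 lies alone on chromosome 1 at 164931644 to 164935527 on the minus strand. RefSeq promoters of GRCm38 were matched for 2 of the 4 genes, Ccl3 and Xcl1, and the 250 bases before each start are shown because both genes had their highest level in the same cell type, NK cells. Capitals mark the motifs found: TGTGGT (Runx), GGAAA (the NFAT core, TTTCC on the other strand) and GGTGTGA (a T-box site), each searched on both strands and without overlap.
Ccl3, chr11:83649379-83649628, minus strand: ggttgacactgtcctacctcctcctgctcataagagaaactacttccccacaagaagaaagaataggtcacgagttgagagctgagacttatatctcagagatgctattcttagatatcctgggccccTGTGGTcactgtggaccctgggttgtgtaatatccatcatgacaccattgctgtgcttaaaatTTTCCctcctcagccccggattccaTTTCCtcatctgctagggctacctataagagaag
Xcl1, chr1:164935523-164935772, minus strand: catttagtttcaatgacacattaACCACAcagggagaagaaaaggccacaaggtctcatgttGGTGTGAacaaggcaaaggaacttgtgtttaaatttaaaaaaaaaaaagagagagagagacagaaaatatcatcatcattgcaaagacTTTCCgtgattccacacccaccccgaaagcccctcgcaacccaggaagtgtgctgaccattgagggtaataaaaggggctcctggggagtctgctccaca
The Ccl3 window held TGTGGT at 122 to 117 bases before the start and the NFAT core at 59 to 55 and at 34 to 30 bases. The Xcl1 window held GGTGTGA at 188 to 182 bases, the Runx letters on the other strand at 227 to 222 bases and the NFAT core at 100 to 96 bases. Of 32851 mouse promoter windows of this length, 3.33% held GGTGTGA, 14% held TGTGGT and 55.6% held GGAAA. The AP-1 letters TGANTCA, the kappaB motif and the CRE motif were in neither window, and 6.75%, 1.41% and 1.55% of all windows held them. These matches describe the letters of the windows and were tied to no binding data.

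The deposited matrix listed 9427 cells, of which 2127 stood a second time with identical counts. These were cells of 1 well of pool LN, and each was counted once, which left 7300 cells with 22833288 unique molecular identifiers (UMIs), a median of 2910 UMIs per cell. A mouse and node supplied 48 cells (udLN of WT mouse 97) to 1060 cells. The mice were loaded in 3 pools, each with both genotypes: pool 1 held mice 8 and 6, pool 2 mice 36 and 97, and pool LN mice 4, 7 and 1. The labels differ on the sort, naming CD45+ CD3+ cells in one place and CD45+ cells in another, and 2267 of the cells carried the label B. By defining markers, Cd8a had UMIs in 82.1% of CD8+ Mem T cells, Ncr1 in 74.1% and Klrb1c in 94.4% of NK cells, Trdc in 75.3% of gdT cells and Cd79a in 98.3% of B cells. Cd3e UMIs were present in 31.5% of the cells labelled NK and in 32.9% of those labelled Myeloid.

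Ccl5 was the message of a narrow group of lymphocytes. Of its UMIs, CD8+ memory T cells (CD8+ Mem T) supplied 51.5%, NK cells 34.0% and gamma delta T cells (gdT) 10.1%, although these types counted 351, 54 and 73 of the 7300 cells. By share of cells with at least 1 Ccl5 UMI, NK cells led with 51 of 54 (94.4%, 95% Wilson interval 84.9% to 98.1%), before CD8+ Mem T with 256 of 351 (72.9%, 68.1% to 77.3%) and gdT with 41 of 73 (56.2%, 44.8% to 67.0%). Intervals cover counting error only. The median depth was 3640 UMIs per cell in NK cells, 5102 in CD8+ Mem T and 2677 in gdT. With cells thinned to 1500 UMIs, the shares were 94.3%, 60.1% and 57.1%, so CD8+ Mem T and gdT then lay close together.

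Below these, the Ccl5-positive share was 8.22% of 73 Myeloid cells, 5.82% of 533 CD4+ Mem T, 3.28% of 1918 CD8+ Naive T, 2.13% of 328 CD4+ Treg, 1.47% of 1703 CD4+ Naive T and 1.15% of 2267 B cells. Naive CD4 T cells and B cells, which should hold little Ccl5, give the level that RNA free in the droplets could reach. Their median depths were 2903 and 2261 UMIs per cell, against 3268 in CD4+ Mem T and 3446 in CD8+ Naive T. When every cell was thinned to 1500 UMIs, the share was 3.93% in CD4+ Mem T, 1.44% in CD8+ Naive T, 0.616% in CD4+ Naive T and 0.773% in B cells.

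**Figure D1:**
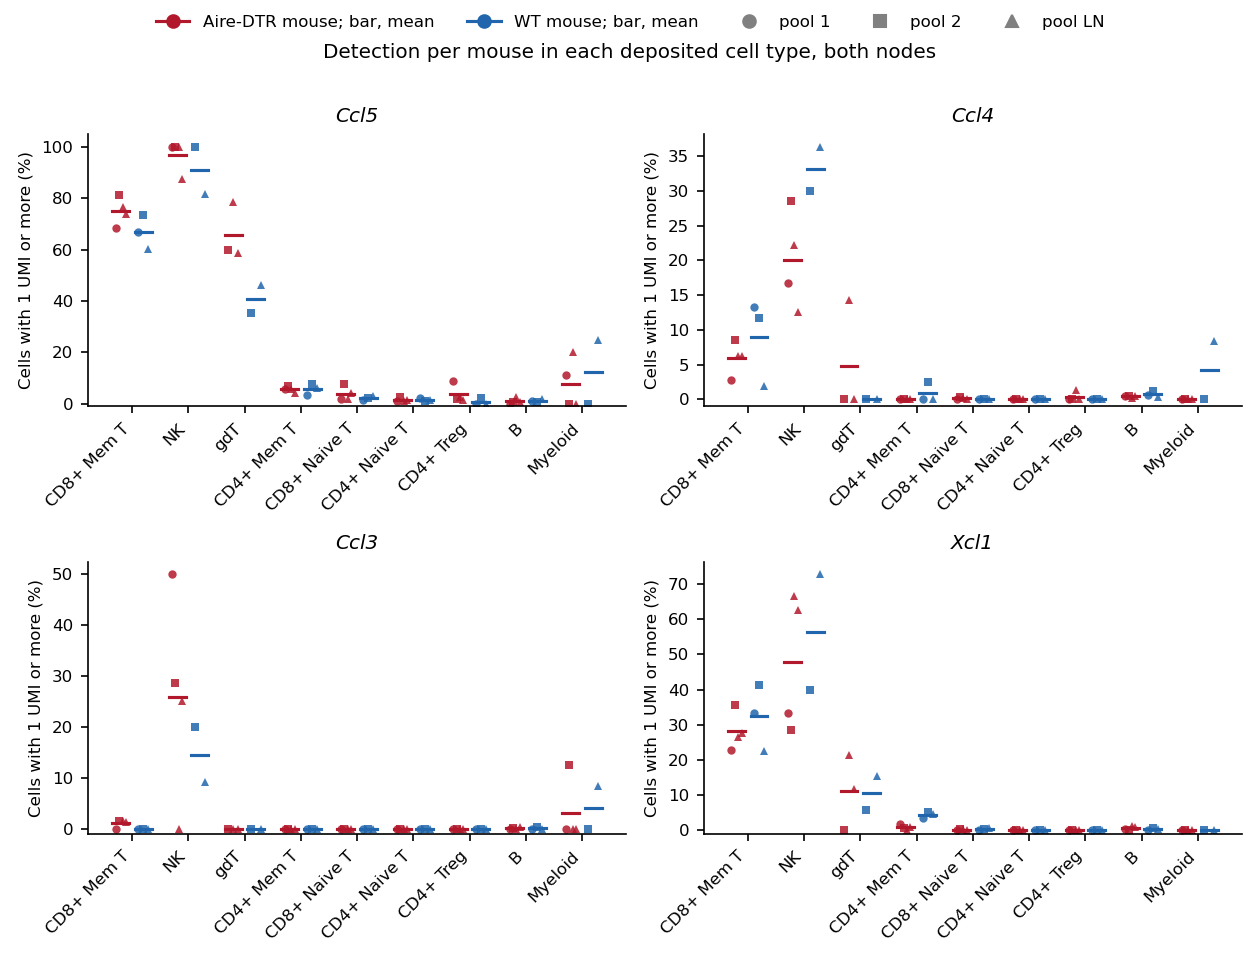
Share of cells (%) with at least 1 UMI of each gene per mouse, by deposited cell type with both nodes joined. Points are mice with at least 5 cells of the type (Aire-DTR red, left; WT blue, right; shape gives the pool) and bars are means; NK cells and CD8+ Mem T stand highest for Ccl5 and Xcl1, and in the remaining types apart from gdT and Myeloid most points lie near 0.

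The level per positive cell separated the cell types further. A Ccl5-positive NK cell held 69.35 UMIs on average (median 63) and a positive gdT cell 25.5 (median 20). A positive CD8+ Mem T cell held 20.9 (median 11), whereas positive CD8+ Naive T cells held 1.64 and positive CD4+ Naive T cells 1.28. These UMIs per cell are not scaled to depth, and CD8+ Mem T had the highest median depth. Of the 54 NK cells 3 had no UMI, 18 had 20 to 49 and 28 had 50 or more. CD8+ Mem T cells were spread over the whole range: 95 cells had no UMI, 44 had 2 to 4, 43 had 10 to 19, 58 had 20 to 49 and 33 had 50 or more. The cell with the most Ccl5 was an NK cell of Aire-DTR mouse 8 with 229 UMIs, followed by a CD8+ Mem T cell of Aire-DTR mouse 4 with 226.

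**Figure D2:**
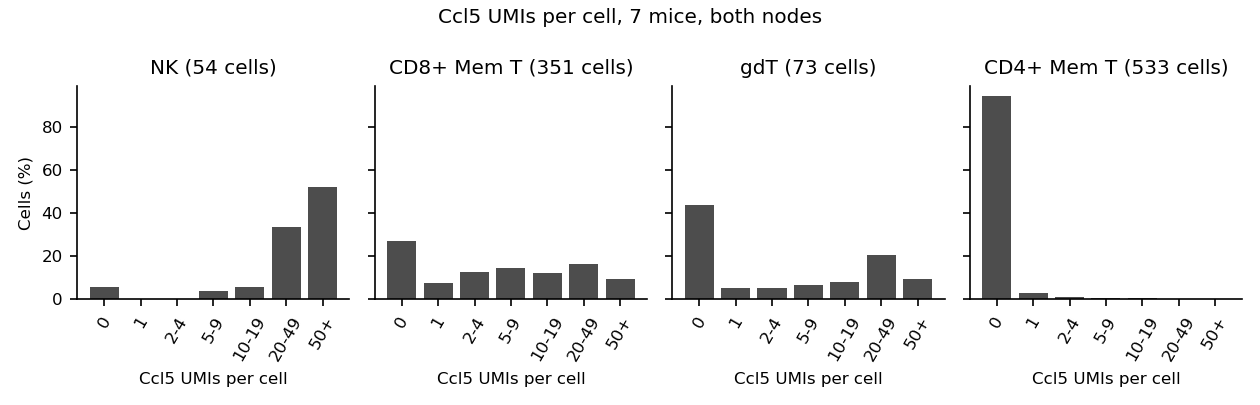
Share of cells (%) by number of Ccl5 UMIs per cell in 4 cell types, all 7 mice and both nodes. NK cells fill the bins from 20 upward, CD8+ Mem T and gdT are spread from 0 to above 50, and 94.2% of CD4+ Mem T hold none.

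Over mice, Ccl5 stood at 17700 ± 6602 CPM (the gene's UMIs scaled to the summed UMIs of the class) in NK cells (SD, n = 6 mice with at least 5 such cells), 4988 ± 1688 in gdT (n = 5) and 2956 ± 801 in CD8+ Mem T (n = 7). NK exceeded gdT in all 5 mice with both, by more than 1 SD of the differences, while gdT and CD8+ Mem T did not differ beyond their spread. CD8+ Mem T exceeded Myeloid cells in all 6 mice with both. From Myeloid cells (196 ± 409 CPM, n = 6) through CD4+ Mem T (94.4 ± 110) down to CD4+ Naive T (5.89 ± 4.04, n = 7), no neighbours differed by more than 1 SD of the differences, although CD4+ Mem T exceeded CD8+ Naive T in 7 of 7 mice, on average by 80.4 CPM. No test was made across types, since the types were named from the same cells.

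Among the 850 cells with a CD4 subset, Ccl5 was found in 15 of 155 activated regulatory T cells (Act. Treg; 9.68%, 5.95% to 15.35%) and in 9 of 105 Th17 cells (8.57%, 4.58% to 15.5%). It was found in 5 of 136 follicular helper cells (Tfh, 3.68%), 4 of 188 Early Act. CD4 cells (2.13%) and 4 of 266 Resting Treg (1.5%). The UMIs per positive cell were 2.60 in Act. Treg, 8 in Th17 and 10.6 in Tfh. A single Th17 cell held 32 of the 72 UMIs of that subset, and a single Tfh cell 25 of 53. The level per mouse was 266 ± 521 CPM in Tfh (SD, n = 6), 235 ± 326 in Th17, 70.3 ± 60.1 in Act. Treg, 12.4 ± 28.4 in Resting Treg and 5.76 ± 5.76 in Early Act. CD4 (n = 7 each), and no neighbours in that order differed beyond their spread.

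Xcl1 followed NK cells and CD8+ Mem T as well, in fewer cells and with few UMIs in each. NK cells were positive in 29 of 54 (53.7%, 40.6% to 66.3%; 3.66 UMIs per positive cell) and CD8+ Mem T in 103 of 351 (29.3%, 24.8% to 34.3%; 2.62 UMIs). gdT had 8 of 73 (10.96%, 5.66% to 20.2%), CD4+ Mem T 9 of 533 (1.69%), B 12 of 2267 (0.529%) and CD8+ Naive T 5 of 1918 (0.261%). No UMI was found in 1703 CD4+ Naive T, 328 CD4+ Treg or 73 Myeloid cells, which allows shares of cells with a UMI, at these depths, of up to 0.176%, 0.915% and 4.11% by 3 counts over the cells. Such a limit does not bound the cells that express the gene. Per mouse, NK cells had 441 ± 280 CPM (n = 6) and CD8+ Mem T 138 ± 104 (n = 7), and NK was higher in all 6 mice with both, by more than the spread. Thinned to 1500 UMIs, the positive share was 34.0% in NK cells, 11.6% in CD8+ Mem T and 0 of 70 in gdT.

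The CD8+ Mem T cells with Xcl1 were also richer in Ccl5: 89 of 103 Xcl1-positive cells (86.4%) had a Ccl5 UMI, against 167 of 248 Xcl1-negative cells (67.3%). Il2rb, a receptor chain for the memory cytokine IL-15, was detected in 83.5% of the Xcl1-positive and 64.9% of the Xcl1-negative cells, and Gzmm, a granzyme, in 36.9% and 24.6%. Egr1, an early gene of T cell receptor signalling, ran the other way at 0.971% and 7.66%, and Cd69, an early activation marker, was at 41.7% and 48.0%. Tnfrsf9, also an early response gene, was at 6.80% in Xcl1-positive and 2.42% in Xcl1-negative cells. The cytotoxic granule gene Nkg7 was at 95.2% and 98.8%, the NK receptor gene Klrd1 at 57.3% and 58.5% and Cxcr3 at 60.2% and 60.1%, so the listed genes had no common direction. They were chosen after their values were seen. The median depth was 5414 UMIs in Xcl1-positive and 4873 in Xcl1-negative cells; its part in these shares was not tested, and the cells come from the same 7 mice.

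A part of Xcl1 sat in cells with other labels. The 12 Xcl1-positive cells labelled B held 129 UMIs, 23.6% of all Xcl1. All 12 had UMIs of Cd3e or Cd3d, 11 had Cd8a or Cd8b1, and 10 had no UMI of Cd79a, the signalling chain of the B cell receptor. A UMI of some B cell marker was present in 3 of the 5 cells with 1 Xcl1 UMI and in 3 of the 7 with more. Their median depth was 9136 UMIs, against 2261 for all cells labelled B. The highest, from the brLN of Aire-DTR mouse 4, had 51 Xcl1, 10 Cd3e, 11 Cd8a and 0 Cd79a UMIs. Tnfrsf9, the costimulatory receptor 4-1BB of activated T cells, was present in 7 of the 12 and in 20 of the 2267 cells labelled B. By their markers these cells carry T cell transcripts, in part beside B cell transcripts, and 97 of their Xcl1 UMIs came from cells without Cd79a. Whether a wrong label or 2 cells in a droplet lay behind this was not tested.

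The 9 Xcl1-positive cells labelled CD4+ Mem T were read in the same way. Cd4 was at 0 in 7 of them, and 6 had UMIs of Cd8a or Cd8b1. Foxp3, the factor of regulatory T cells, was at 0 in all 9. Of all CD4+ Mem T cells, 40.3% had UMIs of Cd4, 15.6% of Foxp3, 12.95% of Cd8a and 19.1% of Cd8b1. Zeros of Cd4 or Foxp3 were thus common in this type and say little about the label of these 9 cells. By subset they were 4 Early Act. CD4, 3 Tfh and 2 Act. Treg cells, and Th17 and Resting Treg held no Xcl1-positive cell.

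Ccl4 and Ccl3 were rare. Ccl4 had UMIs in 14 of 54 NK cells (25.9%, 16.1% to 38.9%), 23 of 351 CD8+ Mem T (6.55%, 4.41% to 9.64%), 12 of 2267 B cells (0.529%), 2 gdT, 2 CD8+ Naive T and 1 cell each of CD4+ Mem T, CD4+ Treg and Myeloid. Ccl3 had UMIs in 11 of 54 NK cells (20.4%, 11.8% to 32.9%), 4 of 73 Myeloid cells (5.48%), 3 CD8+ Mem T and 3 B cells, and in none of the 533 CD4+ Mem T cells, which allows up to 0.563% of cells with a UMI. Per mouse, Ccl4 averaged 123 ± 75.5 CPM in NK cells (n = 6) and 51.2 ± 66.8 in CD8+ Mem T (n = 7) and did not differ beyond the spread. Ccl3 averaged 93.1 ± 67.2 CPM in NK cells and 14.0 ± 22.0 in Myeloid cells. NK was higher in 4 of the 6 mice with both, and the mean difference of 79.1 CPM was little above its SD of 72.6. In the CD4 subsets, Ccl4 was present in 2 Early Act. CD4 cells and in no other subset, and Ccl3 in none.

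The counts of Ccl4, Ccl3 and Xcl1 were carried by few cells. Ccl5 had 10392 UMIs in 506 cells, and its 10 highest cells held 16.2% of them. Xcl1 had 547 UMIs in 166 cells (top 10 cells, 49.5%), Ccl4 207 in 56 cells (69.1%) and Ccl3 46 in 21 cells (76.1%). A single CD8+ Mem T cell from the brLN of Aire-DTR mouse 7 led all 3 of these genes, with 106 Xcl1, 70 Ccl4 and 9 Ccl3 UMIs beside 13 of Ccl5, 7 of Cd3e and 2 of Cd8a at a depth of 5929. It held 19.4% of all Xcl1 and 33.8% of all Ccl4 UMIs. The second cell for Ccl4 and for Ccl3, with 19 and 7 UMIs, was labelled B, came from the brLN of WT mouse 97 and had 0 UMIs of Cd79a, Cd3e, Ncr1 and Lyz2.

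**Figure D3:**
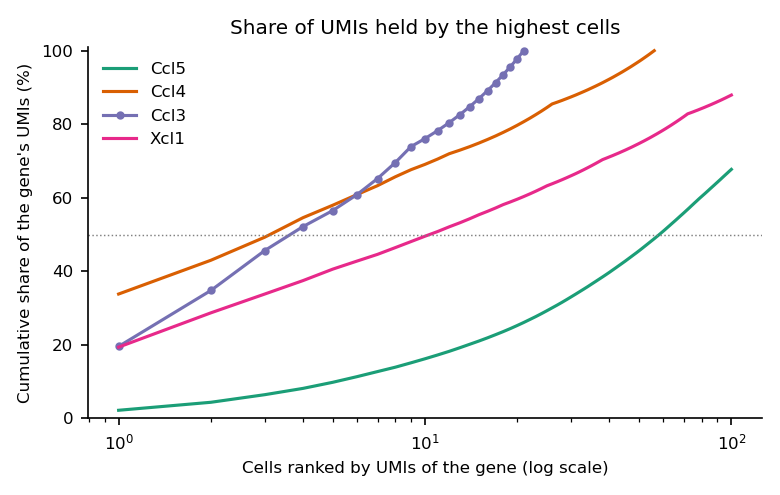
Cumulative share (%) of each gene's UMIs against cells ranked by their UMIs of that gene (log axis; the first 100 cells or all positive cells; dotted line at 50%). The first cell holds 33.8% of Ccl4 and 19.4% of Xcl1 UMIs, whereas for Ccl5 it holds 2.20%.

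Over all types, Ccl5 UMIs were present in 42 of 56 cells with Ccl4, 14 of 21 with Ccl3 and 128 of 166 with Xcl1. Of the Xcl1-positive cells labelled B, 2 of 12 had Ccl5, and of those labelled CD4+ Mem T, 2 of 9. All 23 Ccl4-positive and all 3 Ccl3-positive CD8+ Mem T cells had Ccl5, as did all 14 Ccl4-positive and all 11 Ccl3-positive NK cells and 27 of the 29 Xcl1-positive NK cells. At least 1 of the 4 genes was found in 53 of 54 NK cells and 270 of 351 CD8+ Mem T. At least 2 were found in 35 and 104 of these, at least 3 in 13 and 10, and all 4 in 4 NK cells and in the single CD8+ Mem T cell described above. Since the Ccl5 share is itself 94.4% in NK cells, full overlap there is close to that share. In CD8+ Mem T the Ccl5 share is 72.9%. Ccl4 and Ccl3, neighbours on chromosome 11, coincided in 4 NK cells (of 14 with Ccl4 and 11 with Ccl3) and in 1 CD8+ Mem T cell.

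Among receptors listed for these chemokines, Ccr1 was found in 27 of 73 Myeloid cells, which supplied 76.4% of its UMIs, and in no NK or CD8+ Mem T cell. Xcr1, Ccr3, Ackr2 and Gpr75 were not among the genes of the table, so their absence says nothing about expression. Of 29 other chemokines listed, 18 were in the table, and the most UMIs were those of Ccl6 with 163, of which Myeloid cells supplied 97.6%.

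Across the 9 cell types, the genes whose log2(CPM + 10) pattern was most like that of Ccl5 were Gbe1 (r = 0.9504), Tbx21 (0.944), Cd160 (0.936), Tmem256 (0.931) and Lpin1 (0.929), out of 7897 genes with at least 200 UMIs. Tbx21 encodes T-bet, a T-box factor of NK cells and effector T cells. For Xcl1 they were Ptpn4 (0.970), Ctla2a (0.965), Tbx21 (0.956), Klra4 (0.948) and Magohb (0.932), and for Ccl4 Klra4 (0.982), Ptpn4 (0.972), Ctla2a (0.939), Sike1 (0.933) and Magohb (0.929). Klra4 encodes a Ly49 receptor of NK cells. For Ccl3 they were Sppl3 (0.992), Cox17 (0.964), Car2 (0.951), Ubald2 (0.931) and Mtf1 (0.929), from 46 Ccl3 UMIs. The correlation of Xcl1 with Ccl4 was 0.969. These are descriptions over 9 pooled types that share the same libraries, with NK cells as the extreme point for all 4 chemokines.

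The share of cells with a UMI was compared between genotypes over mice by an exact two-sided permutation test, in 44 tests over genes, classes and nodes. With 4 against 3 mice the smallest p this test can give is 0.0571, so no test could reach 0.05, and the lowest adjusted p was 0.503. In the udLN, Ccl5-positive cells were 7.03%, 5.48%, 6.19% and 7.55% of all cells in Aire-DTR mice 8, 36, 4 and 7, against 7.24%, 10.4% and 8.27% in WT mice 6, 97 and 1. The means were 6.56% ± 0.917 (SD, n = 4) in Aire-DTR and 8.64% ± 1.62 (n = 3) in WT (exact p = 0.114), and the groups overlapped across pools. Within each of the 3 pools every Aire-DTR mouse stood below its WT mouse, by 7.03% against 7.24% in pool 1; the permutation test does not take account of the pools. In the brLN the order was turned: 6.90%, 9.05%, 7.53% and 7.45% in the same Aire-DTR mice, against 4.33%, 5.67% and 5.24% in the WT mice. These means were 7.73% ± 0.925 and 5.08% ± 0.683, and every Aire-DTR mouse stood above every WT mouse (exact p = 0.0571, adjusted p = 0.503).

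In the brLN, Ccl5-positive CD8+ Mem T made up 3.70% to 5.14% of all cells in Aire-DTR and 2.36% to 2.61% in WT nodes, while Ccl5-positive cells of other types made up 2.07% to 3.91% and 1.97% to 3.06%. CD8+ Mem T were 5.10% to 6.42% of all brLN cells in Aire-DTR and 3.63% to 4.43% in WT mice, and within them the Ccl5-positive share was 76.4% ± 6.34 and 62.1% ± 8.86, with overlapping mice (exact p = 0.114). A positive CD8+ Mem T cell held 19.8 UMIs in Aire-DTR nodes and 22.2 in WT nodes there, with a median of 11 in each. In the udLN the mean was 23.8 in Aire-DTR and 18.3 in WT nodes, but the medians stood the other way, at 9.5 in Aire-DTR and 18 in WT nodes, and 1 Aire-DTR cell held 226 of that genotype's 1142 UMIs. Summed over all cells of the brLN, Ccl5 averaged 394 ± 174.5 CPM in Aire-DTR and 351 ± 108 in WT mice (log2 difference 0.06, SE 0.17; adjusted p = 1 by the quasi-likelihood test of edgeR, adjusted after Benjamini and Hochberg, 0% of all genes called). NK cells, the type with the highest level, were 0.481% ± 0.327 of these cells in Aire-DTR and 0.740% ± 0.3185 in WT nodes.

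**Figure D4:**
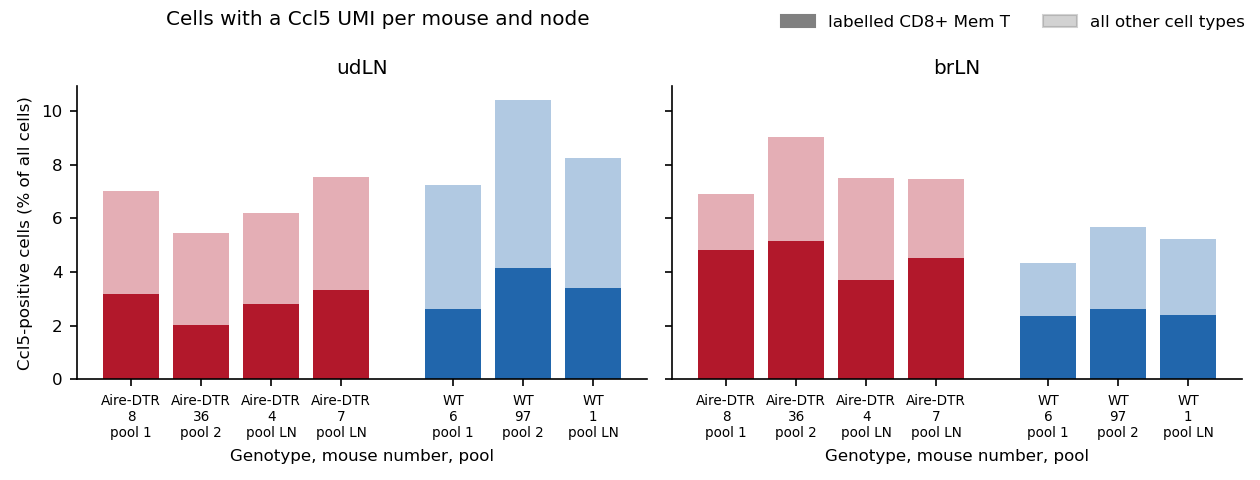
Ccl5-positive cells as a share of all cells (%) per mouse in the udLN and brLN, Aire-DTR red and WT blue; the dark part is CD8+ Mem T and the pale part all other types. In the brLN the dark part is 3.70% or more in each Aire-DTR mouse and 2.61% or less in each WT mouse.

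Xcl1-positive cells in the udLN were 2.24%, 0.865%, 1.41% and 2.11% of all cells in Aire-DTR mice 8, 36, 4 and 7, against 2.63%, 4.17% and 3.16% in WT mice 6, 97 and 1. The groups did not overlap (1.66% ± 0.642 and 3.32% ± 0.780; exact p = 0.0571, adjusted p = 0.503). These shares rest on 7, 3, 10 and 7 positive cells in the Aire-DTR and 4, 2 and 13 in the WT mice. Ccl4 in the udLN ran the same way, with 0.288% to 0.959% in Aire-DTR and 0.973% to 2.08% in WT mice, on 3, 1, 3 and 2 positive cells in Aire-DTR and 3, 1 and 4 in WT mice. Xcl1 in CD4+ Mem T of both nodes was found in 1, 1, 0 and 1 cells of the Aire-DTR mice and in 1, 2 and 3 cells of the WT mice, a share of 0.928% ± 0.793 and 4.44% ± 0.793 without overlap (exact p = 0.0571). As given above, most of these cells had no Cd4 UMI and 6 had Cd8 UMIs: 1 in the Aire-DTR and 5 in the WT mice. In NK cells, Ccl4 was detected in 19.99% ± 6.97 of cells in 4 Aire-DTR mice and 33.2% ± 4.50 in 2 WT mice (exact p = 0.133), with 1, 2, 2 and 1 positive cells in Aire-DTR mice 8, 36, 4 and 7 and 3 and 4 in WT mice 97 and 1. The groups did not overlap, but the difference turned to 2.21 percentage points higher in Aire-DTR when cells were thinned to 1500 UMIs.

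In gdT cells, Ccl5 was detected in 60%, 78.6% and 58.8% of cells in Aire-DTR mice 36, 4 and 7, against 35.3% and 46.2% in WT mice 97 and 1, the mice with at least 5 such cells. These shares join both nodes. The groups did not overlap over 5 to 17 cells a mouse, and no test was made. With mice pooled, the share in the brLN was 54.2% of 24 Aire-DTR and 37.0% of 27 WT cells. In the udLN it was 81.25% of 16 Aire-DTR and 83.3% of 6 WT cells. The mix of nodes thus differed between the genotypes, and its part was not tested.

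UMI sums per mouse were then tested by edgeR's quasi-likelihood method with pool as a term. Over 6 fits (all cells, CD4 T and CD8 T in each node), in which 0% (all cells, brLN), 0.0119% (all cells, udLN), 0.0138% (CD4 T, brLN), 0.127% (CD4 T, udLN), 0.0768% (CD8 T, brLN) and 0.0353% (CD8 T, udLN) of genes were called, 11 tests of the 4 genes passed the filter on low counts and 1 was called at a Benjamini-Hochberg adjusted p below 0.05. This was Ccl5 in CD8 T cells (naive and memory together) of the brLN, a fit in which 0.0768% of all genes were called. Ccl5 stood at 330, 1128, 740 and 687 CPM in Aire-DTR mice 8, 36, 4 and 7, against 568, 589 and 246 CPM in WT mice 6, 97 and 1. The groups overlapped: mouse 36 was highest and mouse 1 lowest, and in pool 1 the Aire-DTR mouse stood below its WT partner. The fitted log2 difference was 0.85 (SE 0.13, adjusted p = 0.000184 by edgeR). The call was lost without mouse 36 (0.76, adjusted p = 0.655 by edgeR), without WT mouse 97 (0.77, adjusted p = 0.715) and without WT mouse 1 (0.39, adjusted p = 0.935), without the pool term (0.69, adjusted p = 1) and by DESeq2 (0.66, adjusted p = 1).

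The memory share of the CD8 T cells was 18.2%, 23.3%, 14.7% and 21.1% in Aire-DTR mice 8, 36, 4 and 7. In WT mice 6, 97 and 1 it was 15.9%, 10.7% and 11.8%, again with an overlap. Mouse 8 had a higher memory share than its pool partner, mouse 6, but a lower Ccl5 level. The part of the memory share in the result was not tested. The summed level of the NK marker list in these CD8 T sums was 75.05 to 131.3 CPM in Aire-DTR and 75.20 to 105.3 CPM in WT mice, and that of haemoglobin genes was at most 6.17 CPM in pool LN and 652.4 to 1116 CPM in the other pools; their part in the result was not tested. In such sums more positive cells and more RNA per cell cannot be told apart. Within CD8+ Mem T alone, both nodes summed, Ccl5 stood at 2315, 3577, 3785 and 2621 CPM in the Aire-DTR mice and at 3990 and 2055 CPM in WT mice 97 and 1, a log2 difference of 0.30 (SE 0.13, adjusted p = 0.984 by edgeR; 0.0669% of genes called). In the udLN, CD8 T cells had 882, 805, 566 and 407 CPM in Aire-DTR mice 8, 36, 4 and 7 and 336 and 663 CPM in WT mice 6 and 1, a log2 difference of 0.05 (SE 0.11, adjusted p = 0.996 by edgeR; 0.0353% of genes called). In the fit of CD8+ Mem T, mouse 8 was the only mouse of its pool, and in that of udLN CD8 T cells mouse 36 was. With pool as a term, these mice did not inform those differences.

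**Figure D5:**
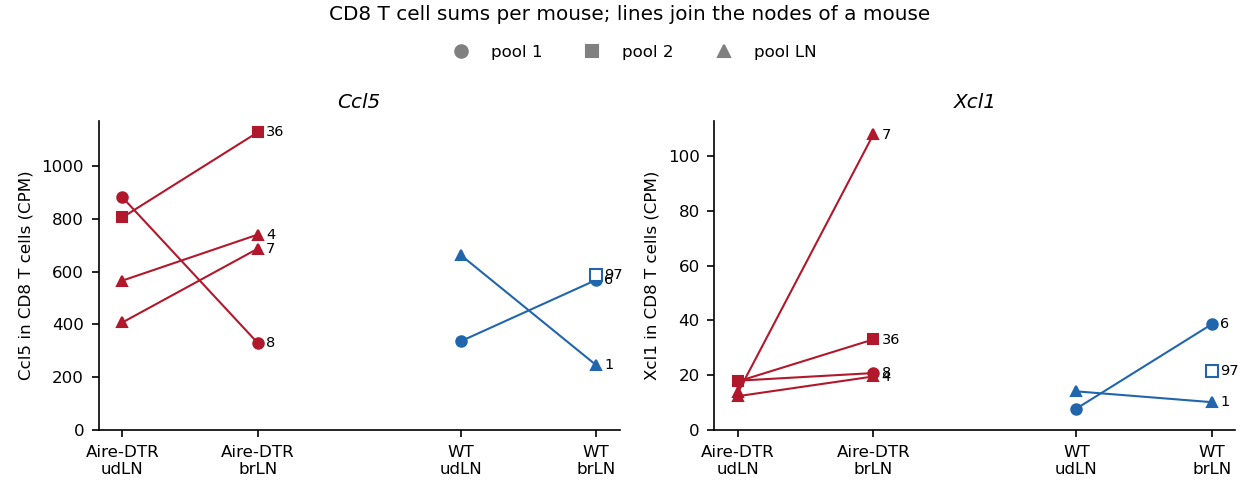
Ccl5 (left) and Xcl1 (right) in CD8 T cells, in CPM, per mouse; Aire-DTR red, WT blue, shape gives the pool, lines join the udLN and brLN of a mouse and the open square is WT mouse 97, whose udLN had under 20 CD8 T cells. Ccl5 of both genotypes overlaps in each node, and for Xcl1 the brLN of mouse 7 stands alone at 107.9 CPM.

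The node-by-genotype term for Ccl5 in CD8 T cells was -0.94 (SE 0.20, adjusted p = 0.00527 by edgeR; 0.12% of genes called), so the Aire-DTR over WT difference was lower in the udLN than in the brLN. Among the Aire-DTR mice, udLN was below brLN in mice 36, 4 and 7 and above it in mouse 8. Of the 2 WT mice with both nodes, udLN was above brLN in mouse 1 (663 and 246 CPM) and below it in mouse 6 (336 and 568 CPM). Without WT mouse 1 the term was 0.59 (adjusted p = 0.773 by edgeR), opposite in sign, and without mouse 7 it was -0.78 (adjusted p = 0.307). Of 7 interaction tests of the 4 genes it was the 1 called, with 0% of genes called over all cells and 0.0781% in CD4 T cells.

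Xcl1 in CD8 T cells of the brLN stood at 20.8, 33.1, 19.5 and 107.9 CPM in Aire-DTR mice 8, 36, 4 and 7 and at 38.6, 21.4 and 10.2 CPM in WT mice 6, 97 and 1. Mouse 7 stood apart and the other mice overlapped; the log2 difference was 1.33 (SE 0.35, adjusted p = 0.189 by edgeR) and 0.49 without the single cell that held 106 UMIs. In CD8+ Mem T of both nodes, the log2 differences of Ccl4 and Xcl1 were 1.21 (SE 0.68) and 0.97 (SE 0.47), each with an adjusted p of 0.984 by edgeR, and without that cell they were -0.56 and 0.09. In CD4+ Mem T, Xcl1 had a log2 difference of -3.47 (SE 0.90, adjusted p = 0.483 by edgeR; 0.0243% of genes called), where Aire-DTR mice 8, 36, 4 and 7 held 1, 2, 0 and 2 UMIs and WT mice 6, 97 and 1 held 9, 3 and 11. Within cell types, 0 of 9 tests were called by edgeR and 0 by DESeq2. Of all genes, 0.026% were called in CD8+ Naive T, 0.0265% in CD4+ Naive T, 0.228% in CD4+ Treg and 0.052% in B cells. Ccl3 passed the filter in none of the 20 fits.

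Between nodes, within mice, 2 of 10 tests of the 4 genes were called. Xcl1 in CD8 T cells was at 18.0, 17.7, 12.4, 13.7, 7.82 and 14.1 CPM in the udLN of mice 8, 36, 4, 7, 6 and 1, against 20.8, 33.1, 19.5, 107.9, 38.6 and 10.2 CPM in their brLN. It was lower in the udLN in 5 of 6 mice, with a log2 difference of -1.37 (SE 0.28, adjusted p = 0.00660 by edgeR; 0.189% of genes called). The call was lost without the cell with 106 UMIs (-0.59, adjusted p = 0.903 by edgeR) and without mouse 7 (-0.56, adjusted p = 0.983). Ccl5 in CD8+ Mem T was at 4038 and 2859 CPM in the udLN of mice 4 and 1, the only mice with 20 such cells in each node, against 3641 and 1543 CPM in their brLN. Its log2 difference was 0.43 (SE 0.10, adjusted p = 0.0228 by edgeR; 0.121% of genes called), and with the minimum lowered to 10 cells the adjusted p was 0.200. The fit of these 2 mice leaves 1 residual degree of freedom, so its SE and p do not measure the spread between mice. In CD4 T cells, Ccl5 had a log2 difference of 0.97 (SE 0.28, adjusted p = 0.135 by edgeR; 0.5% of genes called), in CD4+ Mem T of 1.26 (SE 0.36, adjusted p = 0.155; 0.588%) and over all cells of 0.56 (SE 0.29, adjusted p = 0.774; 0.202%).

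A list of 30 effector and memory genes and another of 22 early T cell receptor response genes were read beside the chemokines in the same fits. In CD8 T cells of the brLN, 17 of 19 effector and memory genes tested had a positive Aire-DTR over WT difference, with a median of 0.27 on the log2 scale against 0.01 over all genes, and none was called. In CD8 T cells of the udLN, 4 of 17 were positive, with a median of -0.06. Within CD8+ Mem T alone, both nodes summed, 8 of 22 were positive, with a median of -0.05. The CD8 T sums mix naive and memory cells, and the part of the memory share given above was not tested. Of the early response genes in CD8 T cells, 8 of 12 were positive in the brLN and 6 of 10 in the udLN, with medians of 0.08 and 0.19 and no call. The calls of list genes that follow were read under the main settings only, so how they depend on single mice was not tested. In CD4 T cells of the udLN, Tnfrsf9 was lower in Aire-DTR mice (log2 difference -1.26, SE 0.30, adjusted p = 0.0303 by edgeR). That fit held 4 Aire-DTR and 2 WT mice, and 0.127% of genes were called. WT mouse 97 had too few cells, which left Aire-DTR mouse 36 alone in its pool. With pool as a term, mouse 36 did not inform this difference. In the node-by-genotype fit of CD4 T cells, Tnfrsf4, the costimulatory receptor OX40, had a term of -1.39 (SE 0.26, adjusted p = 0.00383 by edgeR), so its Aire-DTR over WT difference was lower in the udLN. This fit also held 4 Aire-DTR and 2 WT mice, with 0.0781% of genes called. Between the nodes, Cxcr3, a chemokine receptor of effector T cells, was higher in the udLN in CD4 T cells (1.51, SE 0.33, adjusted p = 0.0167 by edgeR) and S100a6, a calcium-binding protein of memory cells, was lower (-0.86, SE 0.12, adjusted p = 1.14e-05). In CD4+ Mem T the same 2 genes were called, Cxcr3 at 1.58 (SE 0.35, adjusted p = 0.0227 by edgeR) and S100a6 at -1.17 (SE 0.13, adjusted p = 2.55e-06).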

How the data were processed

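The authors deposited whole-number UMI counts per cell and gene, with a table that gives each cell its type, CD4 subset, mouse, genotype, node and well. kallisto 0.46.1, bustools 0.40.0, Scanpy 1.7.0, Seurat and GRCm38 are named in the submitters' processing notes, without a role; cell filters and the treatment of doublets are not stated there, and no doublets were removed here. The 4 genes, the gene lists and the tests were chosen with earlier results of these data known. Named genes are the 4 genes, the 5 most alike in pattern and list members past the threshold; markers and other list genes given as shares of cells were chosen after their values were seen.

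Cells that stood a second time with identical counts were used once. A further 208 barcodes occurred in more than 1 well, with different counts, and their 419 cells were kept. Mouse and node sums held 155098 to 3351478 UMIs. Mice come from the cell table, since the samples in the labels are wells that mix mice. Each mouse is 1 replicate.

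Counts were summed per mouse, node and class with at least 20 cells and fitted with edgeR 4.0.16 (R 4.3.3; TMM scaling, filterByExpr, quasi-likelihood test). Pool was a term between genotypes and mouse between nodes. A mouse that stood alone in its pool did not inform a genotype difference. Benjamini-Hochberg adjustment ran over all genes of a fit, with a threshold of 0.05. A fold is on the log2 scale and its SE is the absolute log2 fold over the square root of F. This SE draws on dispersion shared over genes and is not a spread over mice. Shares used mice with at least 5 cells and exact permutation tests (scipy 1.17.1), adjusted over 44 tests. Zero counts were read as allowing up to 3. Alternatives were RLE scaling, DESeq2 1.42.0, no filter on low counts, minima of 10 or 50 cells, thinning to 1500 or 1000 UMIs, a minimum of 2 UMIs, no pool term and leaving out each mouse. The scripts were tested on simulated data. Precision is limited by 4 and 3 mice and, for Ccl4, Ccl3 and Xcl1, by few positive cells.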

Additional observations from a re-analysis of the deposited data

Results flagged for a closer look

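Among 20 groups of 4 Aire-DTR mice, 5 held a mouse that stood far from the other 3, where chance gives about 1 in 20 independent groups. These groups share mice and cells, and 3 of the 5 rest on 1 cell, so the 2 numbers are not to be compared. Xcl1 in CD8 T cells of the brLN was at 107.9 CPM in mouse 7, against 19.5 to 33.1 CPM in mice 8, 36 and 4. In CD8+ Mem T of both nodes, mouse 7 again stood apart, with Ccl4 at 201.2 CPM, against 16.6 to 29.2 CPM in the other Aire-DTR mice, and Xcl1 at 363.2 CPM, against 77.5 to 100.5 CPM. Of the 77 Ccl4 and 139 Xcl1 UMIs behind those values, a single cell supplied 70 and 106.

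In cells labelled B, Ccl5 was at 46.86 CPM in mouse 4, on 52 UMIs, against 0 to 6.63 CPM in the other Aire-DTR mice. Ccl4 in cells labelled B was at 19.99 CPM in mouse 7, on 18 UMIs, against 1.79 to 2.49 CPM in the others, while WT mouse 97 had 27.2 CPM.

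The Aire-DTR over WT difference of Ccl5 in CD8 T cells differed between the nodes by the interaction term, at -0.94 on the log2 scale (udLN minus brLN; adjusted p = 0.00527 by edgeR). It had the opposite sign without WT mouse 1.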

How the results depend on the processing

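The calls rest on few mice and few cells. Between genotypes within a node, the 1 call became 0 with DESeq2 or without the pool term, 2 with nodes summed and 3 without the filter on low counts; leaving out a mouse gave 0 to 3. Within a cell type, 0 calls became 3 without that filter or with a minimum of 50 cells, and 0 to 4 without a mouse. Between nodes, 2 calls became 1 with RLE scaling, with a minimum of 10 or of 50 cells or without the cell with the most Xcl1, 0 with DESeq2, with repeated cells kept or with pool in place of mouse, 4 without the filter, and 1 to 2 without a mouse. For the interaction, 1 call became 0 with DESeq2 or a minimum of 10 cells, 2 with a minimum of 50 cells, 5 without the filter, and 0 to 2 without a mouse. No share test passed under any setting tried. Leaving out the cell with the most Xcl1 and keeping repeats were chosen after seeing the data.

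Directions turned as follows, on the log2 scale. Ccl5 over all brLN cells (0.06) was -0.026 with DESeq2 and -0.26 to 0.32 without a mouse. Xcl1 over all udLN cells (-0.59) was 0.25 with nodes summed. Ccl5 in udLN CD8 T cells (0.05) was -0.38 with a minimum of 50 cells, -0.0072 with repeats kept and -0.38 to 1.46 without a mouse. Ccl4 in CD8+ Mem T (1.21) was -0.56 without the top cell and -1.24 to 2.33 without a mouse; there Ccl5 ranged over -0.13 to 0.68 and Xcl1 over -0.46 to 2.08. The node difference of Ccl5 in CD8 T cells (0.03) ranged over -0.23 to 0.21 and the interaction over -1.62 to 0.59. The Ccl4 share difference in NK cells (-13.2 percentage points) was 2.21 after thinning to 1500 UMIs and 1.32 with 2 UMIs or more required. Of 203 alternatives to 14 log2 differences, 154 kept direction and side of the threshold. The causes were not tested.

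The mean Ccl5-positive share of CD8+ Mem T (71.6%) was 59.6% thinned to 1500 UMIs, 64.1% with 2 UMIs or more, 54.3% thinned to 1000 UMIs with mice pooled, and 69.9% to 73.4% without a mouse. The node fit of CD8+ Mem T has no value without mouse 4 or mouse 1, its only mice. By replicate number, no pairs exist. No paired analysis was possible because these numbers in the labels name wells over which the cells of several mice are spread, and no test compares wells; the fits instead held mouse (between nodes) or pool (between genotypes) as a term.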

Other observations

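The other listed chemokines were read across the same cell types. Ccl25, known from thymus and small intestine, had UMIs in 1.68% of B cells, 1.64% of CD4+ Naive T, 1.82% of CD8+ Naive T and 3.42% of CD8+ Mem T. Ccl27a, known from skin, was found in 1.72% of B cells and 1.99% of CD8+ Mem T. Cxcl10, an interferon-induced ligand of Cxcr3, had 48.65% of its UMIs in CD4+ Mem T, where 10 of 533 cells held 18 UMIs. Ccl6, a myeloid chemokine, was found in 39 of 73 Myeloid cells.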
